A study of Rattus norvegicus with 8 samples.

Results

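The 10 genes Dusp1, Dusp4, Dusp5, Dusp6, Dusp7, Spry1, Spry2, Spry4, Spred1 and Spred2, which encode feedback inhibitors of the ERK pathway, were looked up in the platform annotation of a rat array. Of these, 7 were annotated, on 9 of the 20500 features: Dusp1, Dusp5, Dusp7, Spry1 and Spry4 on 1 feature each, and Dusp6 and Spred1 on 2 each. The other 3 (Dusp4, Spry2 and Spred2) had no annotated feature under these symbols and were not analysed here. After features of 1 symbol were averaged, the 7 genes were among 17402 features.

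The study set rat intestinal epithelial cells given transforming growth factor beta 1 (TGF-beta-1) at 2 ng/ml for 1 hr against untreated control cells of the same line, both RNAs on 1 two-channel array. RIE-Ras is a derivative of the RIE line made by stable transfection with pSV2-H-Ras(12V), a plasmid that carries human sequence for a constitutively active H-Ras, and had 4 arrays; the labels do not say whether it is a clone or a pool. RIE, the parental line without that plasmid, also had 4 arrays. Each value is the log2 ratio of treated over control signal on 1 array, set relative to the median of that array. A negative log2 ratio therefore means a lower signal after TGF-beta-1, relative to the median feature. The ratio holds no expression level, so neither the baseline of a gene in each line nor the epithelial identity of the cells could be checked. A smaller share of cells with a transcript and less of that transcript per cell cannot be told apart.

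Ras passes growth factor signals through the kinases Raf, MEK and ERK, and active ERK induces its own inhibitors. The DUSP genes encode dual-specificity phosphatases that remove the activating phosphates of MAP kinases. Dusp6 and Dusp7 encode cytoplasmic phosphatases selective for ERK, Dusp5 a nuclear one selective for ERK, and Dusp1 a nuclear one that also acts on p38 and JNK. Sprouty and Spred proteins act further upstream, between the receptor and Raf, and Spred1 recruits the Ras GTPase-activating protein neurofibromin. Transcripts of several of these genes are widely used as readouts of ERK activity. TGF-beta-1 itself signals mainly through Smad transcription factors.

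The sequences before the gene start are shown for the 3 genes that were lower on all 8 arrays and for Dusp1, which was not, as the windows in which factors downstream of ERK could be looked for. Each is 250 bases long, 5′ to 3′ on the strand of the gene, from RefSeq on GRCr8, and all 7 measured genes were matched to an entry by symbol. Capitals mark 3 motifs searched on both strands: an Ets motif (CCGGAA), a cyclic AMP response element (TGACGTCA), and the serum response element core bound by serum response factor. Shorter or variant forms of the Ets motif were not searched.
Dusp6, chr7:35979354-35979603, plus strand: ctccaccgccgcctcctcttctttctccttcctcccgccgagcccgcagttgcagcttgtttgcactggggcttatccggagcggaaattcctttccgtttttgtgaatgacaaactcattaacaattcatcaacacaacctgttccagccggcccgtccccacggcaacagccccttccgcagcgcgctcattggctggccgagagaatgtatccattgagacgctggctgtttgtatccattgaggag
Dusp5, chr1:262543524-262543773, plus strand: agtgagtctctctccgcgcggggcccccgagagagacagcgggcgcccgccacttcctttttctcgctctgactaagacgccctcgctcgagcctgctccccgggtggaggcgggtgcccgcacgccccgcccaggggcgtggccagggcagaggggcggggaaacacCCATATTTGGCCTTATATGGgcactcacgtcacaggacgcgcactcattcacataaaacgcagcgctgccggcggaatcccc
Spry4, chr18:30702547-30702796, minus strand: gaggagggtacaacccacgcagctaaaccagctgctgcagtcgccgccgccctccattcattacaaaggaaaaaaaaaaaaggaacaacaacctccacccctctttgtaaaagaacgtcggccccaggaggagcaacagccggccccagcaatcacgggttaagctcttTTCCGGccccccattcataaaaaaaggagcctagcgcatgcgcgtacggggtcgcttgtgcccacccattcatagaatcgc
Dusp1, chr10:17184603-17184852, plus strand: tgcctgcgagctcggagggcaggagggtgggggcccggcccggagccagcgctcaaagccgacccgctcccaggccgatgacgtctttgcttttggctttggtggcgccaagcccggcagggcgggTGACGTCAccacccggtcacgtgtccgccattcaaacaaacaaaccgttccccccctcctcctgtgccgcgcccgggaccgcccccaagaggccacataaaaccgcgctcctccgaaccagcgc

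The Dusp5 window held 2 adjacent serum response element cores, starting 82 and 72 bases before the gene start. Such a core was in 1.5% of the 33469 windows of the same length in the table. The Spry4 window held 1 Ets motif CCGGAA, 81 bases before the start, and 12.6% of all windows held this motif. The Dusp1 window held 1 cyclic AMP response element, 124 bases before the start, as did 1.59% of all windows. The Dusp6 window held none of the 3 motifs in the forms searched. The AP-1 motif TGANTCA (6.34% of all windows) and the Smad box CAGAC (42.9%) were in none of the windows of the 7 measured genes. The 2 cores of Dusp5 did not overlap each other. These are matches of letters and not measured binding.

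The arrays varied in quality. The median log2 ratio of an array, as deposited, was between 0.20 and 0.45. RIE-Ras replicate 1 correlated with the other 7 arrays across features at between -0.11 and 0.15, while RIE replicates 3 and 4 correlated with each other at 0.692. The spread of the ratios (SD from the median absolute deviation) was narrowest on RIE replicate 2 (0.24) and widest on RIE replicate 4 (0.55). Smad7 and Gadd45b, early targets of TGF-beta, were positive on all 8 arrays, at 1.24 or more and at 1.10 or more. Separate cultures are not stated for the numbered samples of a line. The p-values therefore rest on the spread of these arrays, and part of that spread may be technical.

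The first question was how TGF-beta-1 changed the feedback transcripts in cells that carry active Ras. In RIE-Ras cells Dusp6 fell, and Dusp5 and Spry4 were lower on all 4 arrays without passing the test. Dusp1, Dusp7 and Spred1 stayed near the array median, and Spry1 differed widely between arrays. Over all 7 genes the median log2 ratio was -0.51, against 0.01 over all features, and 4 of 7 were below 0, against 49.2% of all features. Without RIE-Ras replicate 1, where Spry1 was at -3.21, the median over the 7 genes was -0.07. The count past the threshold (limma, Benjamini-Hochberg adjusted p under 0.05) was 1 of 7, a fall, where 0.121% of all features fell and 0.419% passed in either direction. By unadjusted p under 0.05 the genes were Dusp5, Dusp6 and Spry4, all lower, as for 8.45% of all features. These 3 genes were below 0 on all 4 RIE-Ras arrays, as for 14.1% of all features.

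Dusp6 stood at -0.87, -0.98, -0.69 and -1.06 on the log2 scale on RIE-Ras replicates 1 to 4. All 4 values were far below the array medians, and between 0.91% and 9.98% of features were lower on the same array. The mean was -0.90 ± 0.12 (moderated SE, n = 4), or 1.86-fold lower in treated than in control cells, with an adjusted p of 0.0386 by limma. Before centring Dusp6 was still below 0 on each RIE-Ras array, between -0.86 and -0.36, with a mean of -0.61. The call ended without any 1 array other than RIE replicate 1 (adjusted p between 0.0355 and 0.117 over the 8 fits that leave an array out), with RIE-Ras cells fitted alone (adjusted p = 0.126) and after quantile normalization (adjusted p = 0.0773). The mean in these fits stayed between -1.06 and -0.84. It could not move where RIE arrays were left out or RIE-Ras cells were fitted alone.

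Relative to the array median, the 2 features of Dusp6 agreed in direction on every array. Before centring they differed in sign on RIE replicate 4, where feature 9841 was at -0.89 and feature 18706 at 0.18. After centring, feature 9841 stood at -0.93, -1.27, -0.78 and -1.21 on RIE-Ras replicates 1 to 4, and feature 18706 at -0.80, -0.69, -0.60 and -0.92. Feature 9841 was the lower of the pair on each of these arrays, by 0.14 to 0.59. Tested on their own, both passed in RIE-Ras cells, with means of -1.05 ± 0.17 (adjusted p = 0.0448) and -0.75 ± 0.13 (adjusted p = 0.0474, limma over 20500 features).

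Dusp5, the nuclear ERK phosphatase, stood at -0.57, -0.63, -0.41 and -0.45 on RIE-Ras replicates 1 to 4. The 4 values lay close together and below the array median, with an SD of 0.10. Their mean was -0.51 ± 0.10 (moderated SE, n = 4), or 1.43-fold lower, and did not pass (adjusted p = 0.0595). Without centring the mean was -0.23. Dusp5 passed by limma without repeated fold values (adjusted p = 0.0442), where 228 of all features passed, against 73 in the fit reported. In the other fits its adjusted p reached 0.188.

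Spry4, a Sprouty family inhibitor of Ras and Raf activation, stood at -0.78, -0.95, -0.39 and -0.86 on RIE-Ras replicates 1 to 4. Replicate 3 was the highest and the other 3 lay close together. The mean was -0.74 ± 0.14 (moderated SE, n = 4), or 1.67-fold lower, and did not pass (adjusted p = 0.0595). Without centring the mean was -0.46 and passed (adjusted p = 0.0425), while in the other fits the adjusted p reached 0.176. Without centring 3657 of all features passed in RIE-Ras cells, against 73 in the fit reported. At the looser threshold of 0.10 Dusp5, Dusp6 and Spry4 were all past it in RIE-Ras cells, as were 1.38% of all features in the lower direction.

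Dusp1, the broad nuclear MAP kinase phosphatase, stood at -0.23, 0.32, 0.47 and 0.05 on RIE-Ras replicates 1 to 4. It was above the median on 3 arrays and below it on 1, with a mean of 0.15 ± 0.15 (adjusted p = 0.612, 95% interval from -0.18 to 0.49). Dusp7, the closest relative of Dusp6 among the 7 feedback genes, stood at -0.08, -0.14, 0.05 and 0.23. Its mean of 0.02 ± 0.11 had a 95% interval from -0.23 to 0.26 (adjusted p = 0.950).

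Spry1 stood at -3.21, -0.996, 0.23 and 0.56 on RIE-Ras replicates 1 to 4. The gene was among the lowest features on replicates 1 and 2, where 1.44% and 0.86% of features were lower, and above the median on replicates 3 and 4. The SD of 1.71 was the widest of the 7 genes, the mean was -0.85 ± 0.51 (adjusted p = 0.401), and without replicate 1 it was -0.07. Spred1 stood at -0.15, 0.29, 0.16 and -0.09, with a mean of 0.05 ± 0.11 (adjusted p = 0.837). Its features differed in sign on replicate 1, where feature 9905 was at -0.52 and feature 16132 at 0.23.

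**Figure D1:**
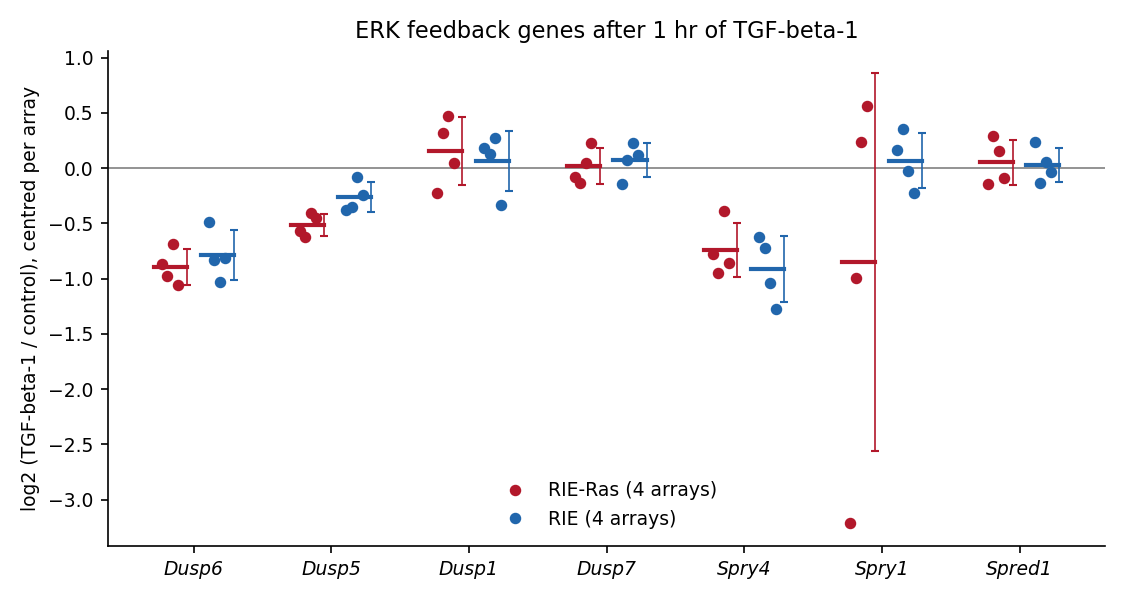
Log2 ratio of treated over control signal, relative to the array median, for the 7 measured genes in RIE-Ras (left of each pair) and RIE cells. Points are single arrays, thick bars the mean of 4 arrays and thin bars the SD; Dusp6, Dusp5 and Spry4 lie below 0 on all 8 arrays, and Spry1 spreads from -3.21 to 0.56 in RIE-Ras cells.

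The second question was the same in the parental line. In RIE cells Dusp6 and Spry4 had means of -0.79 and -0.92 and Dusp5 a mean of -0.26, each below 0 on all 4 arrays, but none of the 7 genes passed. The median over the 7 genes was 0.03 (between -0.04 and 0.05 when 1 RIE array was left out), against -0.01 over all features, and 3 of 7 were below 0, against 50.8% of all features. The share of all features that passed was 0.0747%, and 0.0575% fell. By unadjusted p under 0.05 the genes were again Dusp5, Dusp6 and Spry4, all lower, as for 11.5% of all features, and the share below 0 on all 4 RIE arrays was 14.3%. At the looser threshold of 0.10 the genes past it were Dusp6 and Spry4, where 0.586% of all features were past it in the lower direction.

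Dusp6 stood at -0.49, -0.83, -1.03 and -0.81 on RIE replicates 1 to 4. Replicate 1 was the highest of these and still below 0. The mean was -0.79 ± 0.12 (moderated SE, n = 4), or 1.73-fold lower, with an adjusted p of 0.0648 by limma. Without RIE replicate 1 the mean was -0.89 and passed (adjusted p = 0.0479), and without RIE replicate 3 it was -0.71 (adjusted p = 0.312). Dusp6 also passed with no centring, without repeated fold values and with array weights (adjusted p between 0.000253 and 0.0416). These fits called 4061, 47 and 6539 of all features, against 13 in the fit reported. Dusp6 did not pass with equal spread per array (adjusted p = 0.0505), quantile normalization (0.0556) or RIE cells fitted alone (0.192).

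Relative to the array median, both features were below 0 on all 4 RIE arrays. Feature 9841 stood at -0.38, -0.88, -1.17 and -1.34 on RIE replicates 1 to 4, and feature 18706 at -0.59, -0.78, -0.89 and -0.28. On replicate 4 the gap between them was 1.06, the widest of the 8 arrays, and on replicate 1 feature 18706 was the lower one.

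Spry4 stood at -0.63, -0.72, -1.04 and -1.28 on RIE replicates 1 to 4. All 4 were among the lowest 5% of features on their array, where 1.49% to 4.67% of features were lower. The mean was -0.92 ± 0.14 (moderated SE, n = 4), or 1.89-fold lower, with an adjusted p of 0.0650. It passed with array weights, quantile normalization, equal spread per array and no centring (adjusted p between 0.000331 and 0.0414). In RIE cells, however, array weights called 6539 of all 17402 features and no centring 4061, against 13 in the fit reported. Quantile normalization called 95 and equal spread 87. Spry4 did not pass with RIE cells fitted alone (adjusted p = 0.192), with RIE replicates 3 and 4 averaged (adjusted p = 0.271) or without any 1 array (adjusted p between 0.0510 and 0.312).

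Dusp5 stood at -0.38, -0.35, -0.08 and -0.24 on RIE replicates 1 to 4, with a mean of -0.26 ± 0.10 (adjusted p = 0.228). Replicates 1 and 2 were the lower pair. Without centring the mean was 0.09, so the sign of Dusp5 in RIE cells rests on the comparison with the median feature.

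The other 4 genes stayed near the array median in RIE cells. Dusp1 stood at 0.18, 0.13, 0.27 and -0.33, with a mean of 0.06 ± 0.15. Dusp7 stood at -0.14, 0.08, 0.23 and 0.12, with a mean of 0.07 ± 0.11. Spry1 stood at 0.16, 0.35, -0.02 and -0.23, within a far narrower range than in RIE-Ras cells, with a mean of 0.07 ± 0.51. That SE is wide because the fit shares 1 spread per gene between the lines, and the SD over the 4 RIE arrays alone was 0.25. Spred1 stood at 0.23, -0.13, 0.05 and -0.04, with a mean of 0.03 ± 0.11, and on replicate 1 its features were at 0.80 (9905) and -0.34 (16132). The adjusted p of these 4 genes lay between 0.769 and 0.960.

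**Figure D2:**
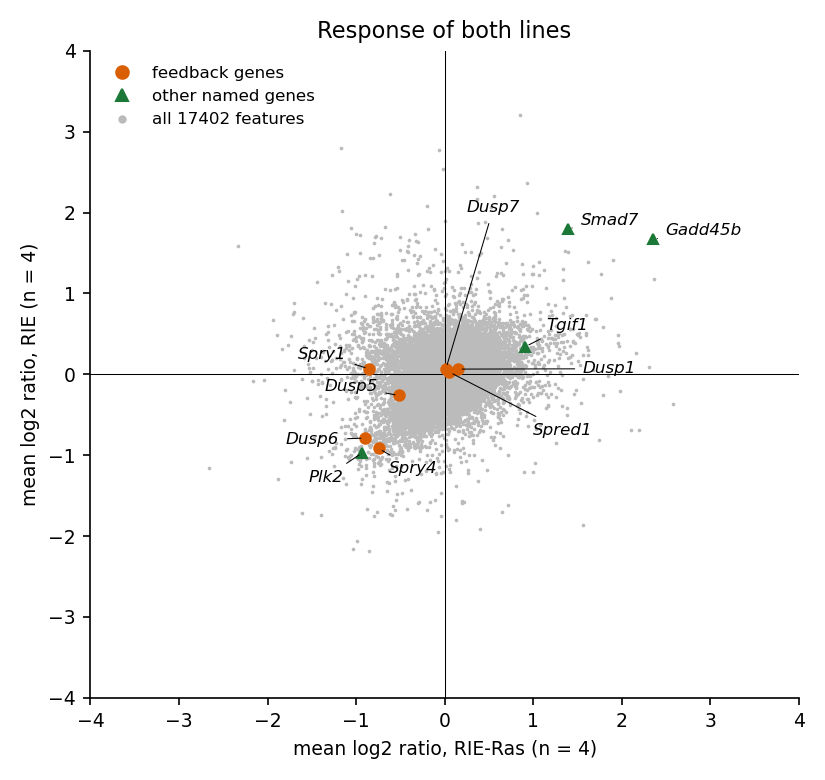
Mean log2 ratio over 4 arrays in RIE-Ras (x axis) and RIE cells (y axis) for all 17402 features (grey), the 7 feedback genes (circles) and 4 other named genes (triangles). Dusp6 and Spry4 lie in the lower left, at -0.90 and -0.79 for Dusp6 and at -0.74 and -0.92 for Spry4, while Dusp1, Dusp7 and Spred1 lie near the origin.

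Dusp5, Dusp6 and Spry4 were below the array median on all 8 arrays, which held for 4.72% of all features. Dusp6, as the mean of its 2 features, and Spry4 were also below 0 on all 8 arrays before centring, as were 91 features, or 0.523% of all. Feature 18706 of Dusp6 on its own was above 0 on RIE replicate 4 before centring, at 0.18. The centred means of Dusp6 and Spry4 were under -0.5 in both lines, as for 1.96% of all features. In RIE-Ras cells 1.56% of all features had a lower mean than Dusp6, and in RIE cells 1.67%. For Spry4 these shares were 2.82% in RIE-Ras cells and 0.99% in RIE cells. The lines share no arrays, but treated RNA was in channel 2 on all 8, so a dye effect of a single feature cannot be told apart from the treatment within a line.

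The third question was whether these responses differed between RIE-Ras cells and the parental line. The design sets 1 transfected line against its parent, so active Ras cannot be told apart from other differences between them. For the difference RIE-Ras minus RIE none of the 7 genes passed, and 0 of 17402 features did by limma (0%), while 1857 had an unadjusted p under 0.05 (10.7%), none of them a feedback gene. For Dusp6 the mean was -0.90 in RIE-Ras and -0.79 in RIE cells, a difference of -0.11 ± 0.17 with a 95% interval from -0.49 to 0.27. For Spry4 the means were -0.74 and -0.92, and the difference was 0.17 ± 0.20 with an interval from -0.28 to 0.63. The sign for Dusp6 turned with equal spread per array (0.06) and with array weights (0.10).

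Dusp5 had the smallest p of the 7 genes in this contrast. Relative to the array median it stood at -0.63 to -0.41 on the RIE-Ras arrays, against -0.38 to -0.08 on the RIE arrays. The lines thus did not overlap, with RIE-Ras cells lower. Before centring they did overlap, at -0.37 to -0.08 on the RIE-Ras arrays and -0.15 to 0.29 on the RIE arrays. After centring, 2.5% of all features had arrays that did not overlap with RIE-Ras cells lower, and 7.5% in either direction. The difference was -0.25 ± 0.14, with a 95% interval from -0.57 to 0.06 (adjusted p = 0.555), and it did not pass in any of the fits tried (lowest adjusted p = 0.141, with array weights).

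For Spry1 the difference was -0.92 ± 0.73 (adjusted p = 0.696) and was -0.13 without RIE-Ras replicate 1. The differences of Dusp1, Dusp7 and Spred1 were 0.09 ± 0.21, -0.05 ± 0.15 and 0.02 ± 0.16. Their intervals reached from -0.38 to 0.56, from -0.40 to 0.29 and from -0.34 to 0.39.

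**Figure D3:**
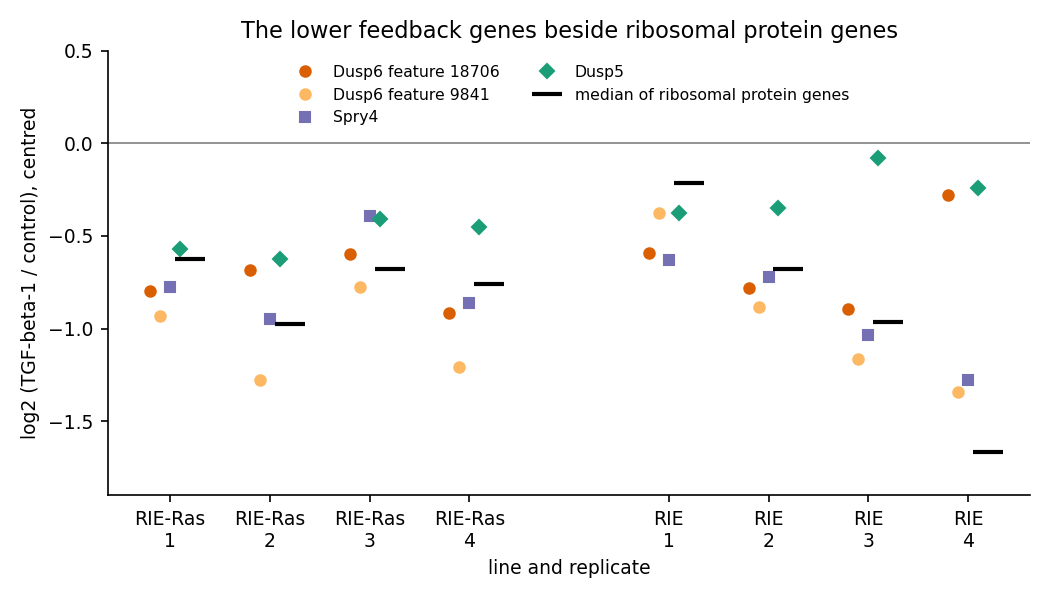
Log2 ratio on each array, relative to the array median, for both features of Dusp6, for Spry4 and Dusp5, and for the median of 49 cytosolic ribosomal protein genes (black bars), with RIE-Ras arrays left of RIE arrays. Feature 9841 of Dusp6 lies below the ribosomal median on all arrays but RIE replicate 4, Dusp5 lies above it on all arrays but RIE replicate 1, and on RIE replicate 4 the ribosomal median is -1.67.

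The median ribosomal protein gene was also below 0 on all 8 arrays. The median of 49 cytosolic ribosomal protein genes stood at -0.62, -0.98, -0.68 and -0.76 on RIE-Ras replicates 1 to 4, and at -0.21, -0.68, -0.96 and -1.67 on RIE replicates 1 to 4. Of these 49 genes, 46 had a mean below 0 in each line (93.9%), against 49.2% of all features in RIE-Ras and 50.8% in RIE cells. By unadjusted p under 0.05, 39 were lower in each line, against 8.45% of all features in RIE-Ras and 11.5% in RIE cells. Past the threshold in RIE-Ras cells were 2, Rpl13a (-1.31) and Rplp0 (-0.89) (adjusted p = 0.0438 each by limma), where 0.121% of all features fell. In RIE cells 4 were, Rpl27 (-1.73), Rpl32 (-1.75), Rps24 (-1.47) and Rplp0 (-1.04) (adjusted p between 0.0345 and 0.0493), where 0.0575% fell. Feature 9841 of Dusp6 and Spry4 had the same order as that median over the RIE arrays, highest on replicate 1 and lowest on replicate 4. Feature 18706 of Dusp6 did not, and was highest on RIE replicate 4. In RIE-Ras cells 26.5% of the ribosomal protein genes had a lower mean than Dusp6, and 59.2% a lower mean than Spry4. In RIE cells these shares were 73.5% for Dusp6 and 51.0% for Spry4. The part of this shift in the values of Dusp6 and Spry4 was not tested.

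The named genes whose values lay closest to those of a feedback gene were found by the root mean square difference over the 8 arrays. Closest to Dusp6 were Tuba1a (0.13), an alpha-tubulin gene, Mdh1 (0.18), the cytosolic malate dehydrogenase, and Prmt1 (0.20), an arginine methyltransferase. Closest to Spry4 were H2az1 (0.14), a histone variant, Ndufa5 (0.16), a subunit of respiratory complex I, and Prdx6 (0.17), a peroxiredoxin. Closest to Dusp5 were Tusc2 (0.11), Macroh2a1 (0.12) and Pcmt1 (0.13). Closest to Spry1, at a larger distance, were Kynu (0.36), Bex1 (0.41) and Nap1l5 (0.43). Between Dusp6 and Spry4 the same measure was 0.22, and between Dusp5 and either it was 0.52 (Dusp6) and 0.56 (Spry4).

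**Figure D4:**
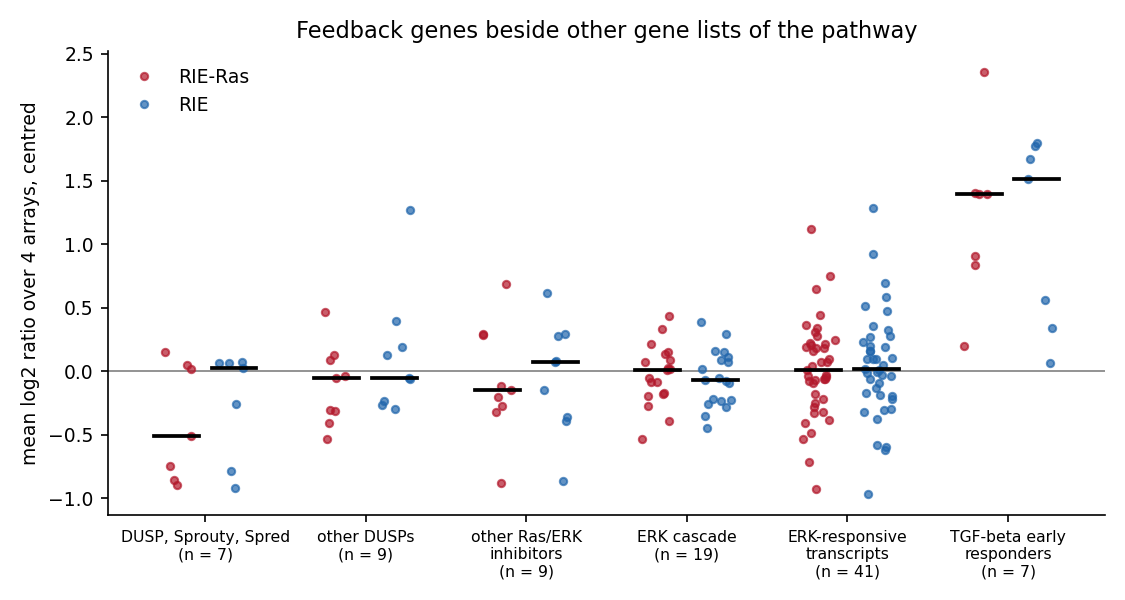
Mean log2 ratio over 4 arrays, relative to the array median, for each measured gene of 6 lists in RIE-Ras (left of each pair) and RIE cells, with black bars at the list medians. The lists of the ERK pathway have medians between -0.15 and 0.07 apart from the feedback genes in RIE-Ras cells (-0.51, and -0.07 without RIE-Ras replicate 1), and the TGF-beta early responders stand at 1.39 and 1.51.

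Of 41 measured ERK-responsive transcripts outside the feedback genes (52 listed), 1 fell in each line and none rose. Over all features 0.121% fell in RIE-Ras and 0.0575% in RIE cells. The list was chosen with earlier results of these data known, so this count is not a test of it. The list medians were 0.01 in RIE-Ras and 0.02 in RIE cells, against 0.01 and -0.01 over all features. The fall was that of Plk2, a polo-like kinase gene induced by mitogens, at -0.93 ± 0.12 in RIE-Ras (adjusted p = 0.0386) and -0.97 ± 0.12 in RIE cells (adjusted p = 0.0444). Vegfa, the vascular growth factor, stood at 1.12 ± 0.24 in RIE-Ras and 1.29 ± 0.24 in RIE cells, and Areg, the EGF receptor ligand amphiregulin, at -0.71 ± 0.16 in RIE-Ras and -0.58 ± 0.16 in RIE cells. Myc, a growth-promoting transcription factor gene, stood at 0.09 ± 0.14 in RIE-Ras and -0.60 ± 0.14 in RIE cells. None of these 3 passed (adjusted p between 0.0708 and 0.753).

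Among 19 measured components of the ERK cascade (27 listed) none passed in either line, where 3 had an unadjusted p under 0.05 in RIE-Ras cells (15.8%, against 19.3% of all features) and 4 in RIE cells (21.1%, against 17.5% of all features). The list medians were 0.01 in RIE-Ras and -0.07 in RIE cells. Map2k1, which encodes MEK1, the kinase of ERK, stood at -0.39 ± 0.10 in RIE-Ras (adjusted p = 0.0954) and -0.45 ± 0.10 in RIE cells (adjusted p = 0.113). Sos1, the exchange factor that loads Ras, stood at 0.43 ± 0.12 in RIE-Ras and 0.39 ± 0.12 in RIE cells. Rras stood at -0.54 ± 0.17 in RIE-Ras and -0.23 ± 0.17 in RIE cells, and Mknk1, a kinase activated by ERK, at 0.15 ± 0.12 in RIE-Ras and -0.35 ± 0.12 in RIE cells.

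Of 9 measured other inhibitors of Ras and ERK signalling (15 listed), none passed in RIE-Ras cells, where 4 had an unadjusted p under 0.05 against 19.3% of all features. In RIE cells 1 fell, against 0.0575% of all features. This list too was chosen with earlier results known, so its count is not a test of it. The fall was that of Rgs2, whose product speeds GTP hydrolysis by G proteins, at -0.87 ± 0.11 in RIE cells (adjusted p = 0.0444), while it stood at -0.32 ± 0.11 in RIE-Ras cells (adjusted p = 0.160). The difference of 0.54 ± 0.15 did not pass (adjusted p = 0.292). Rasa1, a Ras GTPase-activating protein, stood at 0.69 ± 0.22 in RIE-Ras and 0.28 ± 0.22 in RIE cells. Ptpn2, a tyrosine phosphatase, stood at 0.28 ± 0.10 in RIE-Ras and -0.15 ± 0.10 in RIE cells. Errfi1, a feedback inhibitor of the EGF receptor, stood at -0.12 ± 0.18 in RIE-Ras and -0.36 ± 0.18 in RIE cells, and Pebp1, the Raf kinase inhibitor protein, at -0.15 ± 0.20 in RIE-Ras and -0.39 ± 0.20 in RIE cells.

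The other dual-specificity phosphatases, many of which act on JNK and p38 or on other substrates, had 9 of 18 listed genes measured, and none passed in either line. By unadjusted p under 0.05 there were 4 in RIE-Ras cells, 1 higher and 3 lower, and 2 in RIE cells, both higher. Over all features the shares were 10.9% higher and 8.45% lower in RIE-Ras cells, and 6.03% higher in RIE cells. Dusp15 stood at -0.04 ± 0.19 in RIE-Ras and 1.27 ± 0.19 in RIE cells (adjusted p = 0.0648 in RIE cells), and the difference of -1.30 ± 0.27 did not pass (adjusted p = 0.228). Dusp8 stood at 0.47 ± 0.14 in RIE-Ras and 0.19 ± 0.14 in RIE cells, Dusp12 at -0.54 ± 0.16 in RIE-Ras and 0.13 ± 0.16 in RIE cells, and Dusp14 at -0.41 ± 0.14 in RIE-Ras and -0.23 ± 0.14 in RIE cells. Dusp9 stood at 0.13 ± 0.15 in RIE-Ras and 0.39 ± 0.15 in RIE cells, and Dusp22 at -0.05 ± 0.15 in RIE-Ras and -0.27 ± 0.15 in RIE cells.

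For scale, 7 measured early responders to TGF-beta had positive means in both lines. Of these, 3 passed as higher in RIE-Ras and 2 in RIE cells, where 52 and 3 of all 17402 features did. Smad7, the inhibitory Smad, rose by 1.39 ± 0.19 in RIE-Ras and 1.798 ± 0.19 in RIE cells, and Gadd45b, a growth-arrest gene, by 2.36 ± 0.21 in RIE-Ras and 1.67 ± 0.21 in RIE cells (adjusted p between 0.00954 and 0.0493 for these 4 values). Tgif1, a repressor of Smad targets, rose by 0.91 ± 0.10 in RIE-Ras cells (adjusted p = 0.0293) and stood at 0.34 ± 0.10 in RIE cells (adjusted p = 0.154). Bhlhe40 stood at 1.40 ± 0.24 in RIE-Ras and 1.51 ± 0.24 in RIE cells and did not pass by limma (adjusted p = 0.0539 and 0.065). On this scale Dusp6 stood at -0.90 in RIE-Ras and -0.79 in RIE cells. Among markers, 6 of 9 epithelial genes were measured with medians of 0.08 in RIE-Ras and 0.02 in RIE cells, and 6 of 7 mesenchymal genes with medians of -0.41 in RIE-Ras and -0.07 in RIE cells. None of these 12 passed in either line, where 0.419% of all features passed in RIE-Ras and 0.0747% in RIE cells. The lowest was Vim at -1.34 ± 0.26 in RIE-Ras (adjusted p = 0.0611) and Col1a2 at -1.71 ± 0.29 in RIE cells (adjusted p = 0.0755). Of the mesenchymal genes 2 were above 0 in RIE-Ras and 3 in RIE cells, reaching 0.24 and 0.27. The epithelial genes lay from -0.43 to 0.47 in RIE-Ras and from -0.16 to 0.10 in RIE cells, with 4 above 0 in each line.

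**Figure D5:**
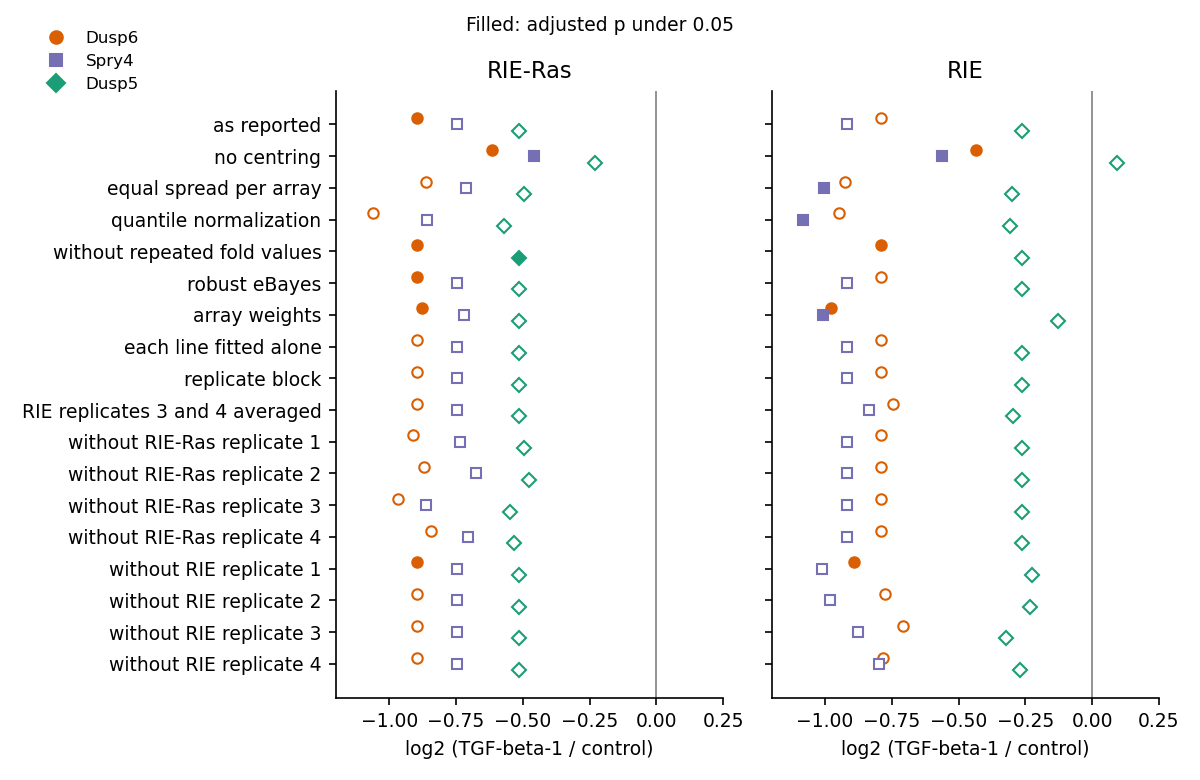
Log2 ratio of Dusp6, Spry4 and Dusp5 in RIE-Ras (left panel) and RIE cells (right panel) under each way of processing the same values, filled where the adjusted p was under 0.05. The values of Dusp6 and Spry4 stay below 0 in every fit shown, and Dusp5 is above 0 in RIE cells without centring, at 0.09. Fits that change only the test, or only arrays of the other line, cannot move a value.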

How the data were processed

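Per the labels, each value the authors deposited is a fold change of treated over control signal on 1 array, with the treated RNA as channel 2. Set against each other, the deposited numbers fit a log2 scale, since the fold sizes they give are multiples of 0.01 (100% of values, tolerance 0.01 of a step). The sources used here name no dye, scanner, background correction, normalization or spot filter, and it is unknown if the authors centred the arrays. No intensities were used.

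Features were named through the platform annotation, with symbols updated through the RefSeq gene table of GRCr8: 12750 of 20500 had 1 symbol, 5 several and 7745 none. Arrays were centred on their medians and features of 1 symbol averaged. R 4.3.3 with limma 3.58.1 (lmFit, eBayes) fitted all 8 arrays with 1 mean per line and the contrast RIE-Ras minus RIE, with two-sided tests and p-values adjusted by Benjamini-Hochberg across the 17402 features. Residual degrees of freedom were 6 and prior ones 2.71. The SE is the moderated one, with 1 spread per gene for both lines. The fit was also run on simulated data with independent noise of 1 spread per gene on all arrays. The real arrays differ in spread and some correlate, so that run does not show how the fit does on them. Precision is limited by having 4 arrays per line.

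The genes and lists were chosen with earlier results of these data known. All measured feedback genes are described. The rule for other genes took from each list the members past the threshold and the up to 3 with the smallest p per line; of the markers the results name only the lowest gene per line. The ribosomal list was added after the values were seen, and its members past the threshold are named outside that rule. The median over the feedback genes with an array left out was also computed after the values were seen. The settings changed in turn were single features, quantile normalization, no centring, equal spread per array, leaving out repeated fold values, robust eBayes, array weights, each line alone, a threshold of 0.10, the replicate number as a block, RIE replicates 3 and 4 averaged, and leaving out each array.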

Additional observations from a re-analysis of the deposited data

Results flagged for a closer look

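In sets of 4 arrays of 1 line, 8 of 110 had an array far from the other 3, or 7.27%, where chance alone gives about 1 in 20. Of the feedback genes this held for feature 9905 of Spred1 in RIE cells, at 0.802 on replicate 1 against -0.19 to -0.02 on the others. RIE replicate 1 also stood apart for Smad7 (2.589, against 1.45 to 1.61), Bhlhe40 (2.645, against 1.04 to 1.21), Cdx2 (-0.605, against -0.07 to 0.02) and Prmt1 (-0.311, against -1 to -0.92). In RIE-Ras cells the array was replicate 1 for Smad7 (1.754, against 1.24 to 1.32), replicate 3 for Prmt1 (-0.472, against -0.72 to -0.70) and replicate 4 for Map2k1 (-0.535, against -0.35 to -0.33).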

How the results depend on the processing

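Of the 7 genes, 1 passed in RIE-Ras cells and 0 in RIE cells. In RIE-Ras cells the count was 2 with no centring and without repeated fold values, 3 at an adjusted p under 0.10, and 0 with equal spread per array, quantile normalization, each line fitted alone or RIE replicates 3 and 4 averaged. In RIE cells it was 3 with no centring and with array weights (Dusp6, Spry4 and, higher, Dusp7), 2 at an adjusted p under 0.10, and 1 with equal spread per array, quantile normalization or without repeated fold values. Leaving out 1 array gave 0 to 1 in each line. The difference gave 0 in every setting run. With the replicate number as a block the count in RIE-Ras cells was 0 (Dusp6 adjusted p = 0.156), and in RIE cells 0; same-numbered arrays correlated at -0.05 to 0.07 in their deviations, so the numbers were not taken to pair the arrays. Array weights gave RIE replicate 3 a weight of 8.70. Leaving out repeated fold values removed 6942 features, Spry1 and Spry4 among them. The cause of these changes was not tested.

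Dusp6 kept its direction in both lines in all 20 settings, from -1.06 to -0.61 in RIE-Ras and from -0.98 to -0.43 in RIE cells. Many of these settings cannot move a mean, such as the threshold of 0.10, robust eBayes and leaving out arrays of the other line. Signs turned for Dusp5 in RIE cells with no centring (0.095), for the Dusp6 difference with equal spread (0.064) and array weights (0.098), for Dusp7 in RIE-Ras cells with array weights (-0.002), and for Spred1 in RIE-Ras cells by feature 9905 (-0.061), in RIE cells by quantile normalization (-0.001) and feature 16132 (-0.056), and in the difference with no centring (-0.048) and feature 9905 (-0.173). Leaving out 1 array gave, in RIE-Ras cells, -0.056 to 0.066 for Dusp7 and -0.027 to 0.118 for Spred1. In RIE cells it gave -0.006 to 0.195 for Dusp1, -0.029 to 0.164 for Spry1 and -0.040 to 0.082 for Spred1. The median over the 7 genes, an alternative chosen after seeing the data, was -0.549 to -0.066 in RIE-Ras cells and -0.040 to 0.051 in RIE cells. For the difference it gave -0.044 to 0.215 for Dusp1 and -0.055 to 0.092 for Spred1.

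Over all features the count in RIE-Ras cells was 73, with 3657 for no centring, 228 without repeated fold values, 673 at 0.10, 10 with equal spread, 4 with RIE replicates 3 and 4 averaged, 0 for quantile normalization, each line alone or the block, and 0 to 137 leaving out 1 array. In RIE cells it was 13, with 4061 for no centring, 6539 for array weights, 87 with equal spread, 95 for quantile normalization, 47 without repeated fold values, 132 at 0.10, 1 for each line alone or the averaged replicates, 0 for the block, and 0 to 30 leaving out 1 array. For the difference it was 0, with 134 for array weights, 1 for no centring and without repeated fold values, and 0 to 2 leaving out 1 array.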
